A study of Mus musculus with 4 samples.

Results

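TRBV1, the segment of the serological family Vβ2, is the V gene at the 5′ end of the mouse T-cell receptor β locus. Its receptors were followed in bulk TRB repertoires of liver CD8+ T cells from mice with MC38 metastases. A row of the clonotype tables, that is a CDR3 nucleotide sequence with its segments, belonged to the set when its first V hit, without the allele, was TRBV1. There were 17084 in-frame TRBV1 clonotypes among 238470 in-frame clonotypes, and 19036 TRBV1 rows among 261962 rows in all. The remaining TRBV1 rows were 1887 out-of-frame rearrangements and 65 with an in-frame stop codon, and 0 TRBV1 rows had a tied V hit.

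The 4 libraries came from 2 wild-type (WT) and 2 Vsig4-deficient (Vsig4-/-) samples, taken 14 days after MC38 cells were injected, so every mouse bore the tumour and there was no tumour-free group. MC38 is a mouse colon adenocarcinoma line, which the labels call a melanoma. VSIG4 is a complement receptor of tissue macrophages, Kupffer cells in the liver among them, and the comparison of genotypes asks whether its loss in the whole mouse goes with other receptors on the T cells. The labels name neither strain, age nor the route of injection, and leave it unsaid whether each library is another mouse, so the p-values here rest on library-to-library spread that may be technical. The tables list TRB rearrangements alone, so neither CD8 and other cell type markers nor loss of Vsig4 could be checked. Totals ran from 901567 to 1269480 counts a library. Vsig4-deficient 2 had the most counts and the lowest median count per clonotype, and amplified copies are not independent molecules.

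A TRB gene is made by joining a D to a J segment and then a V segment to that DJ joint, with bases trimmed from the ends and others inserted between them. The CDR3 loop spans the joints, from the conserved cysteine of V to the conserved phenylalanine of J, and touches the peptide in the MHC groove. A cell whose first joining is out of frame can still use its other chromosome, so an out-of-frame row was not selected through a protein of its own and serves as a reference for the joining step.

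The submitters' processing notes name the mm10 build. In RefSeq's GRCm38.p6, which belongs to that build's family, Trbv1 lies at chr6:40891296-40891885 and is annotated as a V segment. The next V segment, Trbv2, starts 155.67 kb farther on, whereas the largest gap between later V segments ahead of Trbd1 is 30.207 kb. Trbd1 starts 641.315 kb from the end of Trbv1. All 26 V segments listed in frame matched a symbol of that annotation.

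The germline end of each V segment inside the CDR3 was read from rows with no trimming and no mismatch, and is shown because it carries the feature that sets TRBV1 receptors apart. Capitals mark the codon of a second cysteine, which follows the conserved cysteine codon after 1 threonine codon. TRBV2, TRBV13-2 and TRBV31 are shown for comparison.
TRBV1: tgcaccTGCagtgcaga
TRBV2: tgtgccagcagccaaga
TRBV13-2: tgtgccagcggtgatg
TRBV31: tgtgcctggagtc

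The TRBV1 end has 17 bases and was read from 2239 such rows. Of the 17084 in-frame TRBV1 clonotypes, 99.3% had a cysteine at CDR3 position 3, counted from the conserved cysteine as 1. Among the other V segments 108 of 221386 clonotypes (0.0488%) had one, and 83 of these used TRBV31. This follows from the segment's own bases and is given as a description. A CDR3 with a cysteine at position 3 was therefore a TRBV1 receptor in 99.4% of cases.

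The first 9 bases of TRBV1, through the second cysteine codon, nearly always matched the germline. The codon is called intact where all of them matched, so a mismatch counted as a loss just as trimming did. In frame 235 clonotypes failed this, whereas 160 had lost 8 or more bases at the V end. The codon was intact in this sense in 98.5% and 98.3% of in-frame TRBV1 clonotypes in WT 1 and 2 and in 98.8% and 98.8% in Vsig4-deficient 1 and 2. Out of frame it was intact in 97.9% and 98.1% in WT and 96.6% and 97.4% in Vsig4-deficient libraries. The in-frame share was the higher one in all 4 libraries, by 1.12 ± 0.857 percentage points (SD, n = 4; two-sided exact sign-flip permutation test, p = 0.125, the smallest that 4 libraries allow; Benjamini-Hochberg p = 0.141 over 9 paired measures). The ranges of the in-frame and out-of-frame shares did not overlap.

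TRBV1 ends, as read from the V alignment, fell at a few preferred places. A later base that matches the germline by coincidence may also be read as V, so cut sites were not observed directly. The end lacked 3 bases in 18.9% ± 0.270 (SD, n = 4) and 1 base in 18.7% ± 1.13 of in-frame clonotypes, but 2 bases in only 5.95% ± 0.339. The full germline end stood in 12.2% ± 0.579, and 21.2% ± 0.823 carried palindromic bases, which arise when the hairpin at a coding end is opened off its tip. The same dip at 2 lost bases was present out of frame, where the shares were 16.2%, 15.3% and 6.68% for 3, 1 and 2 lost bases. The mean number of germline bases kept was 15.02 in frame and 14.99 out of frame, and the difference of 0.0213 ± 0.0896 bases (SD, n = 4) had no fixed sign across the libraries (exact sign-flip permutation test, two-sided p = 0.875, adjusted 0.875). Pooled over the other V segments, clonotypes lost 2.55 ± 0.0174 bases on average against 1.98 ± 0.0283 for TRBV1. Single segments differed, and TRBV2 (1.06 bases), TRBV31 (1.18), TRBV12-1 (1.62), TRBV12-2 (1.64), TRBV13-2 (1.78) and TRBV5 (1.94) lost fewer. Over all other V segments 13.2% of clonotypes carried palindromic bases.

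**Figure D1:**
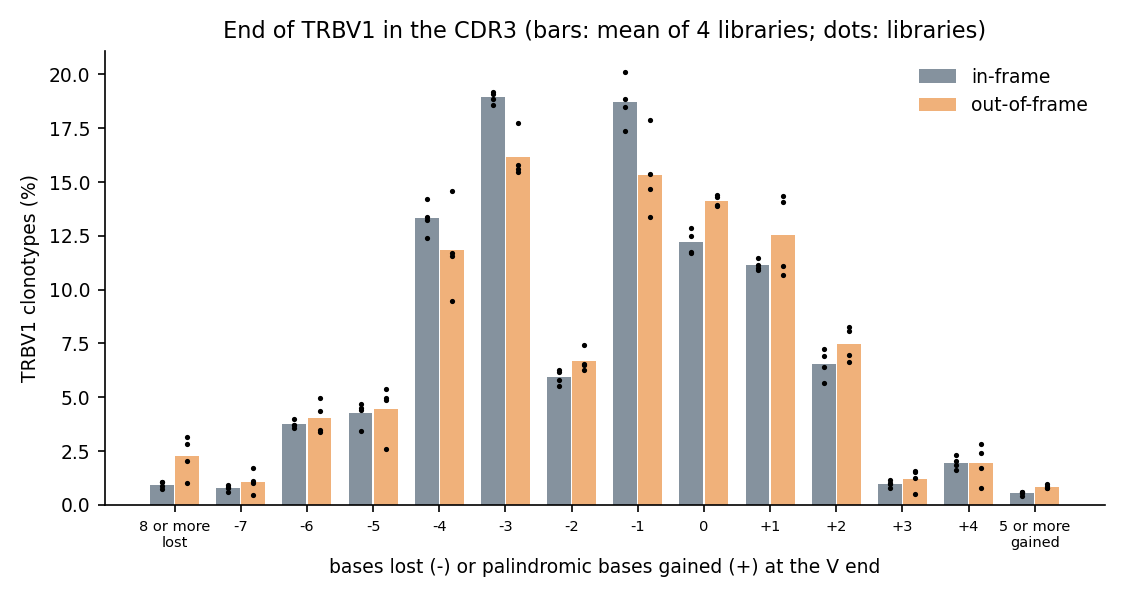
Share of TRBV1 clonotypes (y axis, %) by the number of bases lost or palindromic bases gained at the end of the V segment (x axis), in frame and out of frame. Bars are means of 4 libraries and dots single libraries. The dip at 2 lost bases, 5.95% in frame and 6.68% out of frame, stands between the peaks at 3 and 1 lost bases.

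Most TRBV1 loops opened with the germline residues. The germline start, a threonine between the cysteines followed by serine and alanine, made up 75.6% ± 1.08 of in-frame TRBV1 clonotypes (SD, n = 4), followed by the same start with glycine as the fifth residue in 8.0% ± 0.643, glutamate in 2.24% ± 0.177, valine in 1.99% ± 0.173 and proline in 1.84% ± 0.102. The next position was often acidic. The start with alanine and then aspartate held 27.4% ± 0.326, and aspartate or glutamate stood at position 6 in 39.0%, 39.7%, 37.4% and 38.2% of TRBV1 clonotypes in WT 1 and 2 and Vsig4-deficient 1 and 2. In other V segments, pooled, the range was 15.38% to 15.97%, so the classes lay far apart in every library. Single segments were not compared. Like that of TRBV1, the germline ends of TRBV2, TRBV4, TRBV5, TRBV16 and TRBV17 have 17 bases. They too end in ga, which opens the codon of position 6. Out-of-frame rows were read from their deposited amino acid sequences, which hold a mark at the frame break. In short rows position 6 can lie at or past that mark. Out-of-frame TRBV1 rows had an acidic residue at position 6 in 41.5% ± 1.0 (SD, n = 4), against 16.2% ± 0.759 in other out-of-frame rows. Acidic residues were thus frequent with TRBV1 in and out of frame.

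TRBV1 was a mid-ranking to frequent segment by clonotypes and a more frequent one by counts. It held 6.66% of in-frame clonotypes in WT 1 (95% Wilson interval 6.44 to 6.89) and 6.73% in WT 2 (6.55 to 6.91). In Vsig4-deficient 1 it held 6.85% (6.62 to 7.08) and in Vsig4-deficient 2 8.17% (7.97 to 8.38). The first 3 libraries had overlapping intervals, and Vsig4-deficient 2 stood above them. These intervals cover counting error only. TRBV1 ranked 8, 8, 7 and 5 by clonotypes among the 24 to 26 V segments of a library.

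By counts the shares were 8.39% and 10.7% in WT and 12.6% and 11.8% in Vsig4-deficient libraries, at ranks 5, 5, 3 and 3. Both Vsig4-deficient libraries lay above both WT libraries. Without the largest TRBV1 clonotype of each library the shares were 8.29%, 8.77%, 8.67% and 10.5%, and the genotypes overlapped.

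**Figure D2:**
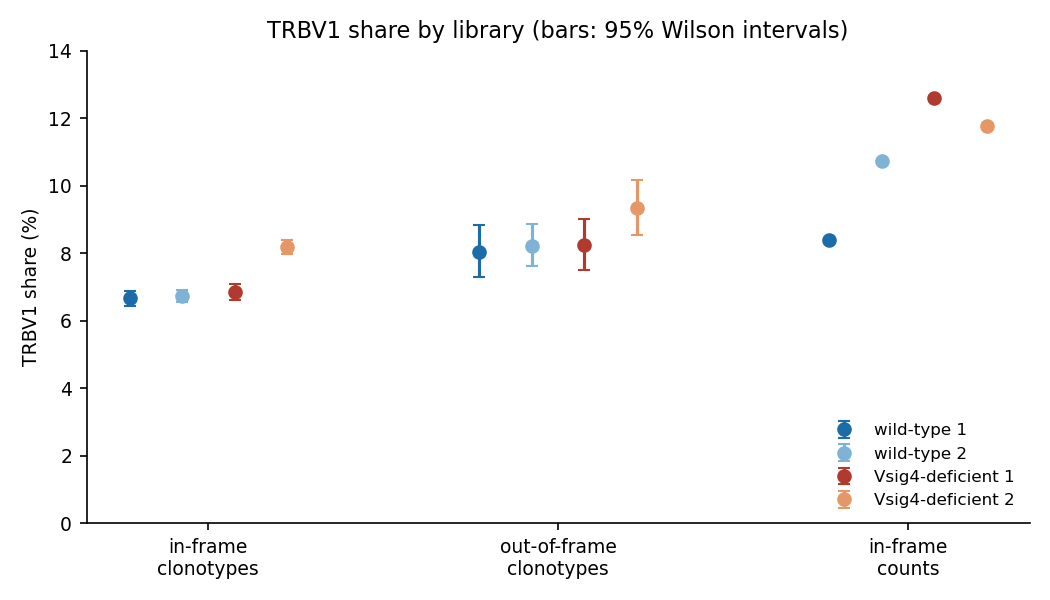
TRBV1 share (y axis, %) of in-frame clonotypes, out-of-frame clonotypes and in-frame counts (x axis) in the 4 libraries, with 95% Wilson intervals for counting error, which are narrower than the points for counts. In-frame clonotype shares of 6.66% to 6.85% in 3 libraries lie below the 8.17% of Vsig4-deficient 2, and count shares reach 12.6% in Vsig4-deficient 1.

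The difference between genotypes did not pass the test across all segments. By clonotypes the log2 ratio of Vsig4-deficient to WT was 0.17 ± 0.11 (SE; edgeR's quasi-likelihood test, Benjamini-Hochberg adjusted p = 0.551). None of the 23 segments tested passed the threshold of 0.05 (0%), also with DESeq2, and 0 had an unadjusted p under 0.05 in edgeR. TRBV1 rose only when Vsig4-deficient 1 was left out (log2 ratio 0.29), a fit in which 13 of 23 segments were called and the lone library was assumed to vary like the WT pair. Without Vsig4-deficient 2 the ratio was 0.03. By counts the log2 ratio was 0.35 ± 0.25 (SE; edgeR, adjusted p = 0.393), and 0 of 24 segments passed (0%), with 4 at an unadjusted p under 0.05 and 1, not TRBV1, called by DESeq2, which gave TRBV1 a log2 ratio of 0.68 (adjusted p = 0.0995). Without the largest TRBV1 clonotype of each library the log2 ratio of counts was 0.17.

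Segments with the most similar pattern across the 4 libraries were TRBV13-1, TRBV13-3 and TRBV13-2, the Vβ8 family. Their centred log2 clonotype shares lay at Euclidean distances of 0.0808, 0.0814 and 0.0992 from TRBV1, and like TRBV1 each had its highest share in Vsig4-deficient 2. The segments closest in mean clonotype share were TRBV29, TRBV12-2 and TRBV12-1, within 0.426, 0.828 and 1.84 percentage points of the 7.10% of TRBV1. By mean count share these 3 lay below TRBV1 with 10.9% (3.36%, 4.92% and 3.91%), and the 3 segments of similar pattern lay above it (11.9%, 18.8% and 21.0%).

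Among out-of-frame rearrangements TRBV1 held 8.04% and 8.23% of clonotypes in WT and 8.23% and 9.33% in Vsig4-deficient libraries. In each library this was above its in-frame share, and there were 12.1, 12.7, 12.8 and 8.01 out-of-frame per 100 in-frame TRBV1 clonotypes against 9.90, 10.3, 10.5 and 6.93 for other V segments. The in-frame share was lower than the out-of-frame share by a log2 ratio of -0.25 ± 0.05 (SE; edgeR's quasi-likelihood test with library as a block, adjusted p = 1.57e-05). A difference of this kind was common: 15 of 24 segments were called (62.5%), 8 of them lower in frame (33.3%). When rows were weighted by counts the ratio was -0.02 (adjusted p = 0.935).

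The other segments at the 5′ end of the V array did not share 1 direction. TRBV4 (log2 ratio -0.99 ± 0.06) and TRBV2 (-0.68 ± 0.08) were lower in frame, TRBV3 was higher (0.19 ± 0.05), and TRBV5 had a ratio of -0.12 ± 0.11 that did not pass (adjusted p = 0.340, edgeR). The median of these 4 was -0.40, beside 0.03 over all 24 segments. None of the 4 passed in either comparison of genotypes.

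TRBV1 was joined to all 12 functional J segments, with a tilt to the TRBJ1 cluster, the one next to TRBD1. TRBJ1 segments made up 32.7%, 34.7%, 37.1% and 33.7% of TRBV1 clonotypes in WT 1 and 2 and Vsig4-deficient 1 and 2, against 30.5%, 31.0%, 31.9% and 31.4% with other V segments. TRBV1 was the higher class in each library. In edgeR's quasi-likelihood test with library as a block, 7 of 12 J segments differed between TRBV1 and other V segments (58.3%), 4 higher and 3 lower. Of the 6 TRBJ1 segments 4 were higher, 1 lower and 1 not called (median log2 ratio 0.15). Of the 6 TRBJ2 segments 2 were lower and 4 not called (median -0.08, beside 0.08 over all 12).

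The 3 J segments with the largest ratios are shown by their germline CDR3 part, read from untrimmed in-frame rows, with the codon of the conserved phenylalanine in capitals.
TRBJ1-2: caaactccgactacaccTTC
TRBJ1-5: taacaaccaggctccgcttTTT
TRBJ1-6: ttcctataattcgcccctctacTTT

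TRBJ1-6, the J segment with the longest CDR3 part (25 bases), was the one most enriched with TRBV1. It was joined to 4.61%, 5.06%, 4.91% and 4.85% of TRBV1 clonotypes and to 2.82%, 2.72%, 2.90% and 3.19% of others, with no overlap, a log2 ratio of 0.74 ± 0.06 (SE; edgeR, adjusted p = 0.00101). It was also enriched out of frame, where the log2 ratio was 0.92 (edgeR, adjusted p = 0.000502), and by counts (1.02, adjusted p = 0.0406).

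TRBJ1-5 was higher with TRBV1 by a log2 ratio of 0.40 ± 0.05 (adjusted p = 0.00274, edgeR), TRBJ1-1 by 0.16 ± 0.02 (0.00156) and TRBJ1-4 by 0.12 ± 0.05 (0.0168). The call for TRBJ1-4 was lost with DESeq2, with TMM normalization and without either Vsig4-deficient 2 or WT 2. TRBJ2-1 (-0.11 ± 0.02) and TRBJ2-7 (-0.16 ± 0.02), which are among the most used J segments, were lower with TRBV1 (adjusted p = 0.00329 and 0.00156). Only TRBJ1-6 was called when clonotypes were weighted by counts, and TRBJ2-1 then had the opposite sign (0.48, adjusted p = 0.543).

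TRBJ1-2 stood opposite in the 2 frames. In frame it was joined to 4.20%, 4.67%, 5.96% and 5.53% of TRBV1 clonotypes and 6.30%, 6.47%, 6.63% and 6.99% of others, lower with TRBV1 in each library, at a log2 ratio of -0.38 ± 0.07 (SE; edgeR, adjusted p = 0.00660). Out of frame it was joined to 8.59%, 10.1%, 8.52% and 8.50% of TRBV1 and 6.10%, 5.99%, 6.07% and 6.39% of other rearrangements, higher with TRBV1 in each library, at a log2 ratio of 0.56 (adjusted p = 0.00388). The difference between the frames, tested as an interaction term chosen after the values were seen, was -0.94 ± 0.16 (SE; edgeR, adjusted p = 3.66e-05). It was the only one of 12 J segments to pass (8.33%), and leaving out any 1 library kept the call.

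The out-of-frame TRBV1 to TRBJ1-2 joints were 171 rows with 156 distinct sequences of 29 to 53 bases, of which 15 were listed in more than 1 library. TRBJ1-2 made up 7.96% of out-of-frame TRBV1 rows with 1 base beyond a multiple of 3 (95% Wilson interval 6.41 to 9.85) and 10.2% of those with 2 (8.41 to 12.3), pooled over the libraries. Both intervals lay above the 5.12% of in-frame TRBV1 clonotypes (4.80 to 5.46). These intervals treat pooled rows as independent and leave out the spread between libraries. They describe the same rows as the interaction term and are no further test of it.

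**Figure D3:**
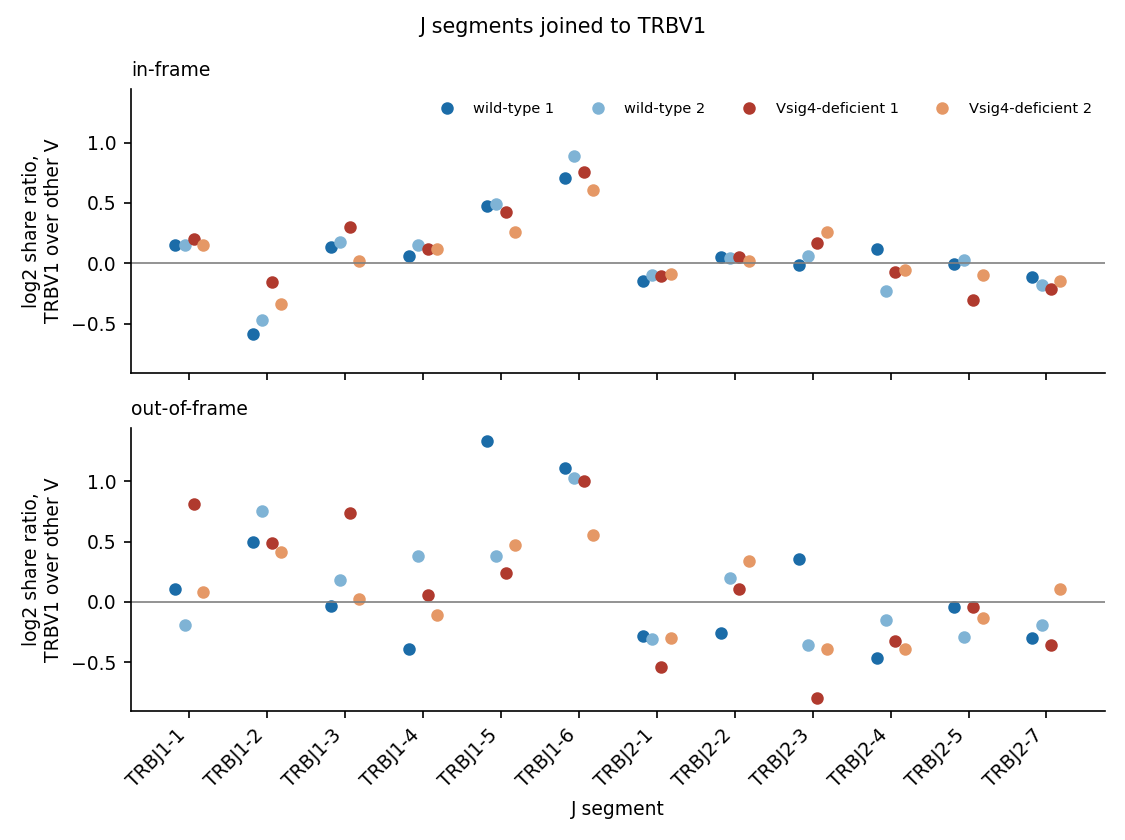
Log2 ratio of the J segment's share among TRBV1 to its share among other V segments (y axis), for each J segment (x axis), in frame above and out of frame below, with 1 point per library. All 4 in-frame points of TRBJ1-2 lie below 0 and all 4 out-of-frame points above 0, while those of TRBJ1-6 lie above 0 in both frames.

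D segments were named less often in TRBV1 joints. A D call was missing in 26.9%, 27.5%, 28.5% and 27.3% of TRBV1 clonotypes and in 23.4% to 23.6% of others, a difference of 4.05 ± 0.727 percentage points (SD, n = 4; exact sign-flip permutation test, two-sided p = 0.125, the smallest possible, adjusted 0.141). TRBD1 was named in 42.8% ± 0.812 of TRBV1 clonotypes and 44.0% ± 0.910 of others, and TRBD2 in 29.7% ± 1.42 and 32.5% ± 0.817. Both were lower with TRBV1 in 4 of 4 libraries, by 1.22 and 2.83 percentage points. With TRBJ1 segments, TRBD2 was named in 3.44% ± 1.06 of TRBV1 clonotypes and 4.91% ± 0.271 of others. Since Trbd2 lies 3′ of the Trbj1 cluster, these few calls give a scale for D calls on short stretches of bases. Weighted by counts, TRBD1 was named more often with TRBV1 (by 6.89 percentage points), and the difference in missing calls was -0.0601.

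TRBV1 loops were longer. The mean CDR3 was 14.39 and 14.33 residues in WT and 14.33 and 14.38 in Vsig4-deficient libraries, both anchors counted, against 13.91, 13.89, 13.91 and 13.92 for other V segments. The classes were apart in every library, by 0.447 ± 0.0263 residues (SD, n = 4; exact sign-flip permutation test, two-sided p = 0.125, adjusted 0.141). Weighted by counts the difference was 0.806 residues. Loops of 17 residues or more made up 4.87% ± 0.462 of TRBV1 and 2.74% ± 0.0869 of other clonotypes, and loops of 11 or fewer 2.74% ± 0.260 and 5.78% ± 0.140.

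The extra length lay at the V end. TRBV1 contributed 15.4 ± 0.0174 bases to the CDR3, palindromic bases included, and other V segments 13.7 ± 0.0174. J segments gave 0.320 ± 0.0196 bases more with TRBV1, whereas D segments gave 0.486 ± 0.0826 bases fewer and insertions 0.163 ± 0.0283 fewer. Among V segments the mean length of TRBV1 loops, 14.35 residues over all libraries, was exceeded only by TRBV2 (14.71), TRBV5 (14.43) and TRBV8 (14.57), of which TRBV8 had just 7 clonotypes. TRBV2 left 16.36 bases and TRBV5 15.31. Out of frame, TRBV1 CDR3s averaged 43.3 ± 0.358 bases and other V segments 42.1 ± 0.0374.

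**Figure D4:**
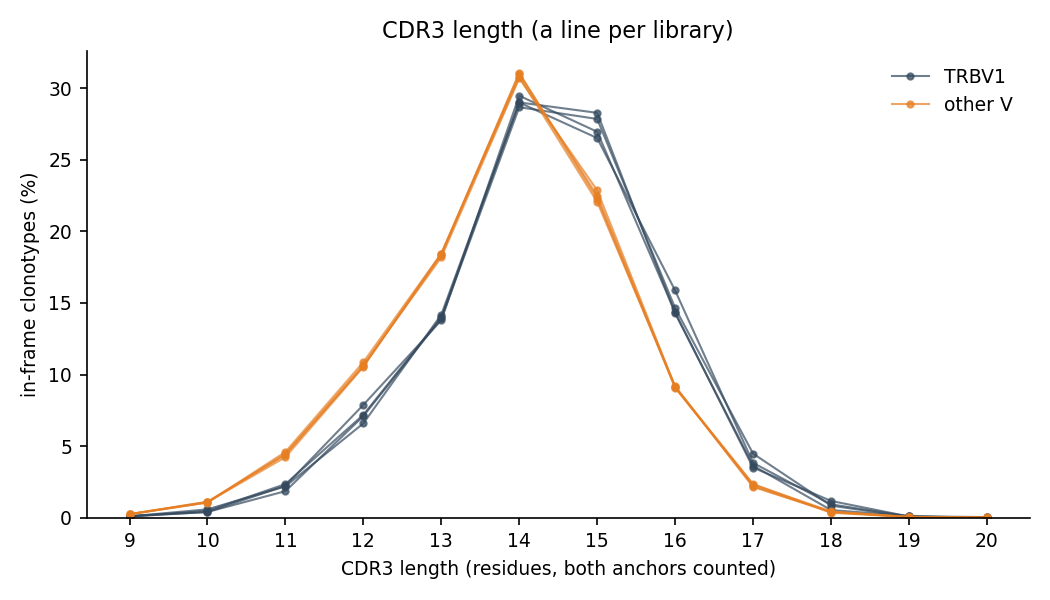
Share of in-frame clonotypes (y axis, %) by CDR3 length in residues (x axis), with a line per library for TRBV1 and for other V segments. The TRBV1 lines are shifted to longer loops: 15 residues make up 27.4% of TRBV1 and 22.4% of other clonotypes on average.

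TRBV1 clonotypes carried more counts than those of other V segments. The median TRBV1 clonotype had 14, 9, 9 and 4 counts in WT 1 and 2 and Vsig4-deficient 1 and 2, against 6, 5, 5 and 3. The log2 ratio of the count share to the clonotype share was 0.33, 0.67, 0.88 and 0.53, above 0 in all 4 libraries (mean 0.60 ± 0.23, SD; exact sign-flip permutation test, two-sided p = 0.125, adjusted 0.141). Without the largest TRBV1 clonotype of each library the mean was 0.35. Only TRBV13-1, TRBV13-2, TRBV13-3, TRBV3 and TRBV31 had a higher median in any library, among the 20 segments with at least 100 clonotypes, and none did in Vsig4-deficient 2.

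Out-of-frame TRBV1 rows showed the same order at lower counts. Their medians were 6, 4, 5 and 3, against 3, 3, 3 and 2 for other out-of-frame rows, and the log2 ratio of count share to clonotype share was 0.22, 0.10, 0.22 and 0.92. Vsig4-deficient 2 was the high one. There TRBV1 held 17.7% of out-of-frame counts, and its largest out-of-frame row had 1104 counts, 15.3% of the 7214 out-of-frame TRBV1 counts. Without that row the log2 ratio there was 0.73. In the other libraries the largest such row had 64 to 375 counts. Whether unequal amplification of V segments had a part in these counts was not tested.

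The largest TRBV1 clonotypes differed by library. WT 1 had none above 0.106% of in-frame counts, the size of its largest. The largest held 2.14% in WT 2, 4.29% in Vsig4-deficient 1 and 1.39% in Vsig4-deficient 2. They are shown with the bases between the V and J alignments in capitals, because these bases set each clonotype apart.
Largest of WT 1 (TRBJ2-7): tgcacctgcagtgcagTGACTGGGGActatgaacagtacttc
Largest of WT 2 (TRBJ1-5): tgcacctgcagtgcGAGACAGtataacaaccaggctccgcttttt
Largest of Vsig4-deficient 1 (TRBJ2-1): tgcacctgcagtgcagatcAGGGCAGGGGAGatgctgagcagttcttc
Largest of Vsig4-deficient 2 (TRBJ2-2): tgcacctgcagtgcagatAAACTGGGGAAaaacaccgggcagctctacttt

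The largest of WT 1 had 926 counts there and 34 in WT 2. The largest of WT 2, where it was the largest clonotype of any V segment, had 18318 counts there and 395 in WT 1, where it was the third largest TRBV1 clonotype. The same nucleotide sequence had 27 and 51 counts in Vsig4-deficient 1 and 2. The largest of Vsig4-deficient 1 had 41134 counts in Vsig4-deficient 1, 779 in Vsig4-deficient 2 and 11 and 12 in WT. The largest of Vsig4-deficient 2 had 17125 in Vsig4-deficient 2 and 35 in Vsig4-deficient 1. Each was largest in 1 library, and elsewhere its share was 0% to 3.75% of the share there. Whether such small counts are separate cells or carry-over between libraries was not tested.

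The next in size followed at different distances. The next of WT 1 had 605 counts. The next 2 of WT 2 had 3697 and 1126, and the larger of them kept just 11 V bases, ahead of 3 bases and TRBJ2-2. The next 2 of Vsig4-deficient 1 had 8521 and 5860 counts, with TRBJ1-4 and TRBJ1-6, and those of Vsig4-deficient 2 had 6593 and 2416, with TRBJ2-1 and TRBJ2-7. All of these kept the second cysteine codon.

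Expansion within TRBV1 was uneven in both genotypes. The 10 largest clonotypes held 5.54% and 27.5% of TRBV1 counts in WT and 56.4% and 25.3% in Vsig4-deficient libraries. The genotypes overlapped (means 16.5% ± 15.5 and 40.9% ± 22.0, SD, n = 2 each; two-sided exact permutation test, p = 0.667, adjusted 0.8 over 6 measures). Clonality, which is 0 for equal sizes and 1 for a single clone, was 0.0842 and 0.210 in WT and 0.421 and 0.238 in Vsig4-deficient libraries. Clonotypes above 0.1% of in-frame counts numbered 1 and 3 in WT and 9 and 9 in Vsig4-deficient libraries. Clonality and this number did not overlap, and each had an exact permutation p of 0.333, the smallest that 2 against 2 libraries allow (adjusted 0.667). By another measure, other V segments were also higher in the Vsig4-deficient libraries. Their clonotypes of over 1000 counts made up 0.0518% and 0.0189% of all in WT and 0.132% and 0.0932% in Vsig4-deficient libraries, also without overlap. This fixed cut is laxer where a library has more in-frame counts. These were 875201 and 857452 in WT and 958198 and 1227914 in Vsig4-deficient libraries. Single libraries weighed heavily: the difference in clonality, 0.182, was 0.0907 without Vsig4-deficient 1, 0.274 without Vsig4-deficient 2, 0.119 without WT 1 and 0.245 without WT 2. The difference in the 10 largest, 24.4 percentage points, was 8.80, 39.9, 13.4 and 35.3 in the same order.

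Counts of TRBV1 were accumulated from the largest clonotype down, and 50% of them were reached by the 446 largest clonotypes in WT 1, 453 in WT 2, 5 in Vsig4-deficient 1 and 196 in Vsig4-deficient 2. Vsig4-deficient 1 thus stood apart through a few clonotypes. Vsig4-deficient 2 stood apart lower in the order of sizes. TRBV1 supplied 8, 12, 12 and 12 of the 100 largest clonotypes of the 4 libraries, but 98, 81, 92 and 261 of the 1000 largest, or 26.1% in Vsig4-deficient 2. In that library 4.40% of TRBV1 clonotypes had over 100 and up to 1000 counts, against 1.08% of other clonotypes. In WT 1 these shares were 2.46% and 1.46%, in WT 2 0.322% and 0.315%, and in Vsig4-deficient 1 1.15% and 0.795%.

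**Figure D5:**
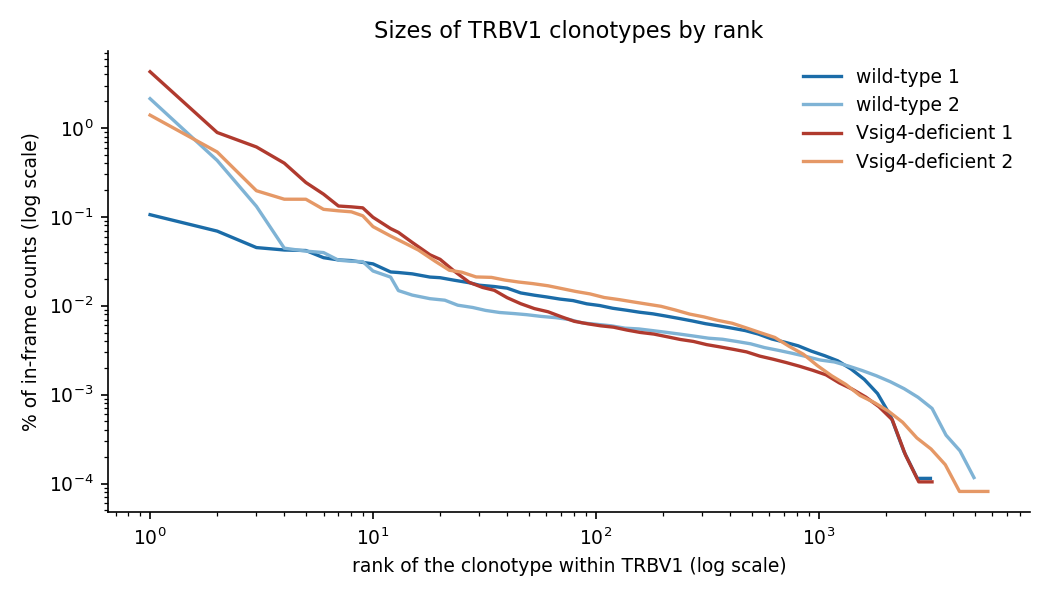
Size of each TRBV1 clonotype as % of in-frame counts (y axis, log scale) by its rank within TRBV1 (x axis, log scale), a line per library. WT 1 starts at 0.106% and Vsig4-deficient 1 at 4.29%.

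Between genotypes no J segment used by TRBV1 passed the test. Within TRBV1, 0 of 12 J segments were called (0%, edgeR's quasi-likelihood test), and 1 had an unadjusted p under 0.05. This was TRBJ1-2, with 4.20% and 4.67% in WT and 5.96% and 5.53% in Vsig4-deficient libraries, a log2 ratio of 0.35 ± 0.09 (SE, adjusted p = 0.106). The values did not overlap, and across the alternatives its adjusted p ran on both sides of the threshold. With other V segments TRBJ1-2 was also higher without overlap, at 6.30% and 6.47% in WT and 6.63% and 6.99% in Vsig4-deficient libraries. That difference was not tested. DESeq2 called 0 segments. The mean TRBV1 CDR3 length differed by -0.00485 residues between genotypes (exact permutation test, two-sided p = 1, adjusted 1). The TRBJ1 share was 1.68 percentage points higher in Vsig4-deficient libraries (exact permutation p = 0.667, adjusted 0.8), with overlap. With other V segments it was 30.5% and 31.0% in WT and 31.9% and 31.4% in Vsig4-deficient libraries, without overlap. The second cysteine codon was intact in 0.346 percentage points more TRBV1 clonotypes of Vsig4-deficient libraries, without overlap (exact permutation p = 0.333, adjusted 0.667). Without clonotypes of 1 count this difference was 0.0855 percentage points, and the genotypes overlapped.

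TRBV1 clonotypes recurred between libraries more often than those of the other V segments pooled. An in-frame TRBV1 clonotype, taken by its amino acid CDR3 with its J segment, was listed in at least 1 other library in 40.9% and 33.4% of cases in WT and 41.6% and 33.4% in Vsig4-deficient libraries. For other V segments the shares were 30.3%, 25.2%, 31.5% and 28.6%. Sharing was not compared for single segments, and clonotypes were not matched for their counts, which were higher with TRBV1. The difference was 8.40 ± 2.68 percentage points (SD, n = 4, higher in 4 of 4 libraries; exact sign-flip permutation test, two-sided p = 0.125, adjusted 0.141), and 4.86 without clonotypes of 1 count. A shared clonotype counts in every library that lists it. The 4 differences are therefore not independent, and the SD and p-value are descriptive only.

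Of 12519 distinct TRBV1 amino acid clonotypes, 149 (1.19%) were in all 4 libraries, beside 0.814% for other V segments. The shared ones were shorter and more often had a form without inserted bases. Those in 1 library had a mean of 14.5 residues, and 9.65% of them had a nucleotide form with no inserted base, whereas those in all 4 had 13.7 residues and 55.7%. Other V segments showed the same gradient, from 9.0% to 56.0%. TRBV1 clonotypes in 1 library had 1.03 nucleotide forms on average and those in all 4 had 4.04. More forms give more chances of 1 without insertion, and this was not adjusted for. Sharing also varied by pair of libraries. WT 1 and WT 2 had 785 in common, 26.6% of the first and 17.3% of the second. Vsig4-deficient 1 and 2 had 939 in common, 31.2% and 17.8%. Pairs of unlike genotype shared 11.7% to 21.9% of each list. These shares depend on list size, which ran from 2954 in WT 1 to 5273 in Vsig4-deficient 2. Against any given list, the library of like genotype had the highest share. The list of WT 1 held 17.3% of WT 2, 12.9% of Vsig4-deficient 1 and 12.3% of Vsig4-deficient 2. That of Vsig4-deficient 2 held 31.2% of Vsig4-deficient 1, 21.9% of WT 1 and 19.5% of WT 2. Other V segments also shared most within a genotype. The cause was not tested.

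The 5 amino acid clonotypes with the highest smallest share over the 4 libraries are shown by their most abundant nucleotide form, with the bases between the V and J alignments in capitals, so that the V and J parts of recurrent receptors can be compared.
Shared clonotype A (TRBJ1-1): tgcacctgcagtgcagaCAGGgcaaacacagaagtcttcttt
Shared clonotype B (TRBJ2-7): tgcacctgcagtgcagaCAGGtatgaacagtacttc
Shared clonotype C (TRBJ2-1): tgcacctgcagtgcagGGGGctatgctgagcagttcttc
Shared clonotype D (TRBJ1-1): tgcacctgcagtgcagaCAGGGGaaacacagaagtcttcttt
Shared clonotype E (TRBJ2-3): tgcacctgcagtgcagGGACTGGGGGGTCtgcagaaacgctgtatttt

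Shared clonotype A had 320 and 332 counts in WT and 146 and 136 in Vsig4-deficient libraries, from 14 distinct nucleotide sequences. Shared clonotype D, which uses the same J segment, had 167, 153, 100 and 96 counts from 16 sequences. Shared clonotype B had 189, 87, 91 and 232 counts from 6 sequences, and its lowest values lay in WT 2 and Vsig4-deficient 1. All 5 were small, at most 0.0387% of in-frame counts in any library, and none was among the 3 largest TRBV1 clonotypes of a library.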

How the data were processed

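Each library had 1 table. Per the file headers, the deposited clone counts are whole, unnormalized counts per CDR3 sequence with V, D and J hits. The deposited clone fraction equalled count over total and served for this check only. The deposited quality score ran from 25 to 37 and no filter was set on it. Which program made the tables, and whether counts are reads or molecules, is unstated in the labels and headers. The submitters' processing notes name mm10.

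Segment use was tested with edgeR 4.0.16 (quasi-likelihood, offsets from library totals, at least 10 per segment, Benjamini-Hochberg threshold 0.05) in R 4.3.3, with DESeq2 1.42.0 as an alternative. Comparisons of frames or V classes used library as a block. Standard errors were derived from the test statistic. Other measures used exact two-sided permutation tests (16 sign patterns, or 6 splits of 2 against 2) in Python 3.11.15. Scripts were tested on simulated data. Named items were TRBV1, the 3 segments closest in pattern (mean share above 1%) and in share, TRBV2 to TRBV5, called J segments, both D segments, the 3 largest clonotypes per library, 5 public clonotypes and the 5 most frequent starts. Members and lists were chosen with earlier results of these data known.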

Additional observations from a re-analysis of the deposited data

Results flagged for a closer look

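The pairing of TRBV1 with TRBJ1-2 differed between in-frame and out-of-frame clonotypes. The log2 ratio of TRBV1 to other V segments was lower in frame by -0.94 ± 0.16 (SE; edgeR's quasi-likelihood test of the interaction term, adjusted p = 3.66e-05), and each of the 4 libraries had the in-frame ratio below 0 and the out-of-frame ratio above 0. The term was fitted after these values had been seen.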

How the results depend on the processing

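Of 346 alternative values for 33 results, 303 were scored as kept, and 14 results were so throughout. For tested values this meant the same direction and side of the threshold. The exact permutation measures could change in direction only, since their smallest possible p is 0.125 (paired) or 0.333 (between genotypes). Numbers of called segments were scored by size, where 10 against 7 still counted as kept. The tally is therefore in part fixed in advance. The log2 ratio of TRBV1 between genotypes ran from 0.0325 to 0.288 by clonotypes when single libraries were left out, and the number of called segments from 0 to 13 of 23. By counts, 0 to 5 segments were called in the same way, and 1 with DESeq2. Weighted by counts, the frame comparison gave TRBV1 a ratio of -0.0165, J pairing had 1 called segment, the sign of TRBJ2-1 turned (0.48), TRBD1 (6.89) and missing D (-0.0601) turned, and between genotypes length (0.500) and TRBJ1 share (-6.26) turned. Out of frame, 3 J segments were called and TRBJ1-2 turned (0.56). Without clonotypes of 1 count, the genotype difference in length (0.00506) and the frame difference in V bases (-0.00319) turned. Leaving out single libraries moved the length difference between -0.0349 and 0.0253, the TRBJ1 share between -0.00647 and 3.37, and V bases kept between -0.00177 and 0.0617. The interaction of frame and V class called 1 to 2 J segments. J use within TRBV1 by genotype had 1 call with TMM, 2 without clonotypes of 1 count and 1 weighted by counts.

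With the replicate block, 0 of 23, 0 of 24 and 0 of 12 segments were called in the 3 genotype comparisons. The deviations of same-numbered libraries had correlations of 0.155, -0.273 and -0.280. With 2 libraries per genotype, these cannot show whether the numbers mark a pairing by design. A crossed replicate block called 0, 0 and 1. The lone library of a leave-one-out fit is assumed to vary like the other pair. Depth limits low clonotypes: a clonotype missing from a library may lie below its detection.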
